A study of Mus musculus with 4 samples.

Results

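The genes described here are 9 macrophage identity and colony-stimulating factor (CSF) genes, picked by symbol from the 14936 genes of the deposited expression table. They are the cytokine gene Csf1, the receptor genes Csf1r, Csf2ra and Csf2rb, the transcription factor genes Spi1 and Maf, and the markers Adgre1, Lyz2 and Cd14. All 9 had counts in every library, and all 9 passed the filter on low counts. They were measured in primary mouse macrophages derived from bone marrow in culture, where the medium was RPMI-1640 and held recombinant mouse M-CSF at 20 ng/ml. M-CSF is the product of Csf1, so every culture was supplied with the ligand of the Csf1r receptor. The 4 groups were wild type (WT) with IL-4 at 20 ng/ml for 12 h, WT with the same IL-4 for 24 h, and cells labelled Phlpp1-deficient (KO) with that IL-4 for 12 h or for 24 h. The genotype label of the KO library at 12 h is spelled Phkpp1-deficient. There was 1 library per group and no group without IL-4. The labels give no allele, strain, age or number of animals, and name no separate animals or cultures behind the libraries. With no replicates, a p-value here covers only the spread among the 4 libraries, estimated largely across genes, and that spread may be technical.

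CSF1 binds the tyrosine kinase receptor CSF1R and sustains the survival, growth and identity of most macrophages. GM-CSF acts through another receptor, made of an alpha chain (Csf2ra) and a beta chain (Csf2rb) that the IL-3 and IL-5 receptors also use and that signals through JAK2 and STAT5. PU.1, encoded by Spi1, is the transcription factor that opens the macrophage programme and drives Csf1r, while c-MAF, encoded by Maf, helps to hold mature macrophages out of the cell cycle. F4/80 (Adgre1), lysozyme M (Lyz2) and CD14, a co-receptor for lipopolysaccharide, are used to recognise the cells.

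Library totals lay between 36707999 and 41770309 counts. Phlpp1 itself went against the labels, with 11.9 and 15.6 CPM (counts scaled to library size) in the WT-labelled libraries and 42.9 and 62.6 CPM in the KO-labelled pair at 12 h and 24 h. Directions below are therefore those of the labels as given. Of the macrophage genes, Csf1r, Spi1, Adgre1 and Lyz2 lay above 99.4%, 98.6%, 99.2% and 99.97% of all genes in mean level per length. Maf and Cd14 ranked lower, above 89.0% and 85.4% of all genes. In bulk RNA, fewer cells of a type and less RNA per cell cannot be told apart.

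Both Lyz2 and Csf2rb have a near-identical neighbour, with which reads could be shared. Lyz2 (GRCm38 chromosome 10, 117277331 to 117282321, minus strand) lies beside Lyz1, and their coding sequences of 447 bases are 95.1% identical. The first 90 coding bases are shown, with the 7 differing bases in capitals.
Lyz2: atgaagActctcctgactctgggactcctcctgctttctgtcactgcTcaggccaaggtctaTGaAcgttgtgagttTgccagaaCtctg
Lyz1: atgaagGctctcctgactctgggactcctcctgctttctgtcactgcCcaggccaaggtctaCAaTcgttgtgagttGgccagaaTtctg
Csf2rb (chromosome 15, 78325752 to 78353847, plus strand) lies beside Csf2rb2, a mouse beta chain used by the IL-3 receptor, and the coding sequences are 92.9% identical. Here the first 90 coding bases hold 3 differences, again in capitals.
Csf2rb: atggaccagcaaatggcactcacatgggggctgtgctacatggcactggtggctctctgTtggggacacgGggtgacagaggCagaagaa
Csf2rb2: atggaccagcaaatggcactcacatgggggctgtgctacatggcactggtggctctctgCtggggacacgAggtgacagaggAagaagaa
Of all 100-base windows of the Lyz2 transcript, 1.97% occur unchanged in the Lyz1 transcript, and for Csf2rb in Csf2rb2 the share is 7.16%. For windows of 50 bases the shares are 15.4% and 18.9%, and for 150 bases 0% and 3.58%. How the authors counted such reads is not given in the sources used here, so the counts of these pairs are uncertain, and these shares do not bound the error. Exons of Csf1r overlap the opposite-strand gene Hmgxb3, which had 35.5 to 43.7 CPM, and exons of Maf overlap the antisense gene Gm15655. The labels do not say that strand was used, so reads of these overlapping parts cannot be assigned.

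Promoter sequence from RefSeq (GRCm38.p6) matched 3 of the 9 genes. The PU.1 core GAGGAA was searched on both strands in the 250 bases before the RefSeq start. It was not found at Csf1 or Lyz2, had 2 matches at Csf2ra, and is held by 23.3% of all 32851 such windows. The RefSeq starts of Csf2ra and Lyz2 lie inside the GENCODE genes, so their windows hold some bases of those genes. The nearer Csf2ra match, from 8 bases before the RefSeq start, is among such bases. Matches and their absence describe letters and not binding. The Csf1 window, that of a gene higher in the KO-labelled libraries, is chr3:107760470-107760719 on the minus strand.
Csf1: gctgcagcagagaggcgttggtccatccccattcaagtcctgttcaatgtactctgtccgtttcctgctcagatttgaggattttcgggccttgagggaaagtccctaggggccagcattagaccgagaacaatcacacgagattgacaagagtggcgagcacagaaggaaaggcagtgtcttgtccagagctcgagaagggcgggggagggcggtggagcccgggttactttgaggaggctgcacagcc
The lysozyme genes were both lower in those libraries. From 140 to 51 bases before their RefSeq starts (chr10:117282323-117282412 for Lyz2 and chr10:117292919-117293008 for Lyz1, minus strand) 77 of 90 bases are shared, and the 13 that differ are in capitals.
Lyz2: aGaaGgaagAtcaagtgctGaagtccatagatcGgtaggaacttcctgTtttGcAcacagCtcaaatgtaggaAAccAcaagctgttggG
Lyz1: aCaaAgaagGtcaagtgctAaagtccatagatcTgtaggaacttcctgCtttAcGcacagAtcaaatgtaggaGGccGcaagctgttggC

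Levels between genes were compared as FPKM, the authors' count per length and library total. Lyz2 was the 4th most abundant of all genes, with a mean FPKM of 11629 over the 4 libraries and 1.07% to 1.43% of all counts. Csf1r (mean FPKM 529), Adgre1 (434), Spi1 (267) and Csf2rb (195) followed. The ranges of Csf1r (505 to 548) and Adgre1 (355 to 496) did not overlap, and neither did those of Spi1 (264 to 269) and Csf2rb (156 to 240). The remaining genes were much lower, with mean FPKM of 36.0 for Maf, 26.5 for Cd14, 17.0 for Csf2ra and 13.4 for Csf1. The ranges of Maf (30.2 to 47.4) and Cd14 (16.9 to 37.4) overlapped. The range of Csf2ra (16.2 to 17.6) overlapped those of Cd14 and of Csf1 (10.1 to 16.8), while Cd14 and Csf1 did not overlap. In deposited FPKM Csf1r stood 30.1 to 52.7 times above Csf1, the gene of its ligand.

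The place of Csf2ra in this order depends on gene length. The length behind its deposited FPKM is 13359 bases, beyond the whole GENCODE gene of 4473 bases (chromosome 19, 61223957 to 61228429). If all its counts lay in the annotation's exons of 2871 bases, its mean FPKM would be 79.2. That would move it from rank 8 to rank 6 of the 9, above Cd14 (25.4) and Maf (15.9). Whether they do was not tested, and a length beyond the gene may take in other reads. With the annotation's exon lengths Adgre1 (449) also stood above Csf1r (355), and Csf1 had 11.6. Differences between libraries for 1 gene do not depend on this length, but the Csf2ra counts may include reads from outside the GENCODE gene.

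**Figure D1:**
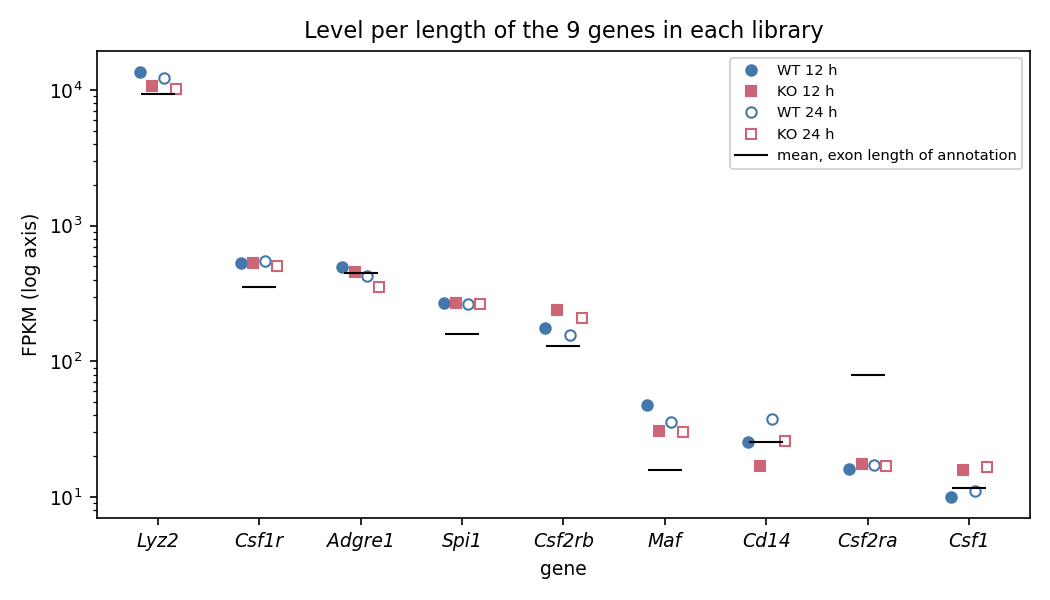
FPKM on a log axis for each of the 9 genes, with 1 point per library (circles WT, squares KO, filled 12 h, open 24 h) and a dash for the mean computed with the annotation's exon length. Lyz2 stands between 10106 and 13531 in FPKM, and Csf2ra is the gene whose dash (79.2) lies farthest above its points (16.2 to 17.6).

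Between the genotypes, 6 of the 9 genes differed across both times in edgeR's quasi-likelihood test with time in the model, at an adjusted p under 0.05. Of all 10993 genes tested, 9.52% were called. Csf1 and Csf2rb were higher in the KO-labelled libraries (4.18% of all genes were called higher), and Maf, Adgre1, Lyz2 and Cd14 were lower (5.34% of all genes were called lower). Of all calls 43.9% were higher, a share that became 61.4% with scaling to library totals, under which the 6 genes kept their directions. Csf1r, Csf2ra and Spi1 were not called. The median log2 fold of the 9 genes was -0.12, beside 0.00 (-0.00253) for all genes tested. None of the 9 reached a log2 ratio of 1 in size between the genotypes at 1 time or between the times in 1 genotype, a size that 1.04% of measured genes reached for KO over WT at 12 h, 1.05% at 24 h, 0.136% for 24 h over 12 h in WT and 0.261% in KO.

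Among the ligands, Csf1 stood at 46.6 and 52.2 CPM in the WT-labelled libraries and at 70.3 and 75.4 CPM in the KO-labelled pair, at 12 h and 24 h. Both KO libraries lay above both WT libraries. The fold was 1.51 at 12 h (exact 95% counting interval 1.42 to 1.60) and 1.44 at 24 h (1.36 to 1.53), intervals that cover counting error only. In the test Csf1 was higher by log2 0.56 (SE 0.08, edgeR adjusted p = 1.82e-05). Il34, which encodes the other ligand of CSF1R, had 1 and 1 counts in the WT-labelled libraries and 7 and 4 in the KO-labelled pair, too few to test. Csf2 and Csf3, the genes of GM-CSF and G-CSF, had at most 5 counts in a library.

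Of the receptors, Csf1r was nearly level. It stood at 2085 and 2182 CPM in the WT-labelled libraries and at 2005 and 1926 CPM in the KO-labelled pair. The KO libraries were the lower at both times, by a fold of 0.962 at 12 h (0.952 to 0.971) and 0.883 at 24 h (0.874 to 0.892). Csf1r was not called (log2 -0.12, SE 0.06, edgeR adjusted p = 0.219), and with scaling to library totals its log2 fold was -0.06. Csf2ra had 219 and 237 CPM with the WT label and 229 and 225 CPM with the KO label, so the groups overlapped (log2 -0.00343, SE 0.07, edgeR adjusted p = 0.988).

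The beta chain differed where its alpha partner was not called. Csf2rb stood at 871 and 783 CPM in the WT-labelled libraries and at 1140 and 1001 CPM in the KO-labelled pair. The groups did not overlap, and the folds were 1.31 at 12 h (1.29 to 1.33) and 1.28 at 24 h (1.26 to 1.2997). In the test Csf2rb was higher by 0.37 (SE 0.06, edgeR adjusted p = 2.85e-05). Its copy Csf2rb2 was higher too, with 680 and 664 CPM against 802 and 761 CPM (log2 0.22, SE 0.06, edgeR adjusted p = 0.0142). DESeq2 did not call Csf2rb2 (adjusted p = 0.0549). The other receptor genes tested in the list of CSF and beta-chain receptors were Csf3r, for G-CSF, Il3ra, the IL-3 receptor alpha chain, and Kit, and edgeR called 0 of these 3, with 0 at an unadjusted p under 0.05.

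The transcription factors parted. Spi1 stood at 434 and 439 CPM in the WT-labelled libraries and at 421 and 416 CPM in the KO-labelled pair, the narrowest range of the 9 genes with the highest library 1.05-fold above the lowest (log2 -0.06, SE 0.06, edgeR adjusted p = 0.668). Maf stood at 175 and 135 CPM in the WT-labelled libraries and at 108 and 108 CPM in the KO-labelled pair. Both KO libraries lay below both WT libraries, and Maf was lower by log2 -0.50 (SE 0.08, edgeR adjusted p = 5.21e-05). The fold was 0.619 at 12 h (0.596 to 0.643) and 0.804 at 24 h (0.771 to 0.838), and these counting intervals do not overlap. Whether the genotype difference of Maf changes with time was not tested, since 1 library per group leaves no replicate for it.

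The 3 markers were lower in the KO-labelled libraries. Lyz2 stood at 14478 and 13265 CPM with the WT label and at 11009 and 10517 CPM with the KO label, without overlap. Its folds were 0.760 at 12 h (0.757 to 0.763) and 0.793 at 24 h (0.790 to 0.796), and it was lower by log2 -0.37 (SE 0.05, edgeR adjusted p = 3.17e-06). Lyz1, counted at 28.7 and 38.7 CPM against 20.3 and 24.998 CPM, was lower as well (log2 -0.56, SE 0.11, edgeR adjusted p = 0.000375). Per length Lyz2 was 410 to 648 times as abundant as Lyz1, so a small share of misassigned Lyz2 reads would weigh on the Lyz1 count.

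Cd14 had the largest genotype fold of the 9 genes in the model of all 4 libraries, while at 12 h alone the ratio of Maf was the larger. Cd14 stood at 43.0 and 63.9 CPM in the WT-labelled libraries and at 27.4 and 42.7 CPM in the KO-labelled pair. The highest KO library lay just under the lowest WT library, and within each time the KO library was the lower. The folds were 0.636 at 12 h (0.589 to 0.685) and 0.668 at 24 h (0.626 to 0.712), and Cd14 was lower by log2 -0.62 (SE 0.09, edgeR adjusted p = 1.20e-05). Adgre1 stood at 1683 and 1465 CPM in the WT-labelled libraries and at 1495 and 1172 CPM in the KO-labelled pair. Across times the groups overlapped, but within each time the KO library was lower, by a fold of 0.888 at 12 h (0.879 to 0.898) and 0.800 at 24 h (0.790 to 0.810). Adgre1 was lower by log2 -0.25 (SE 0.06, edgeR adjusted p = 0.00408), a call that ended with scaling to library totals (adjusted p = 0.0582).

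**Figure D2:**
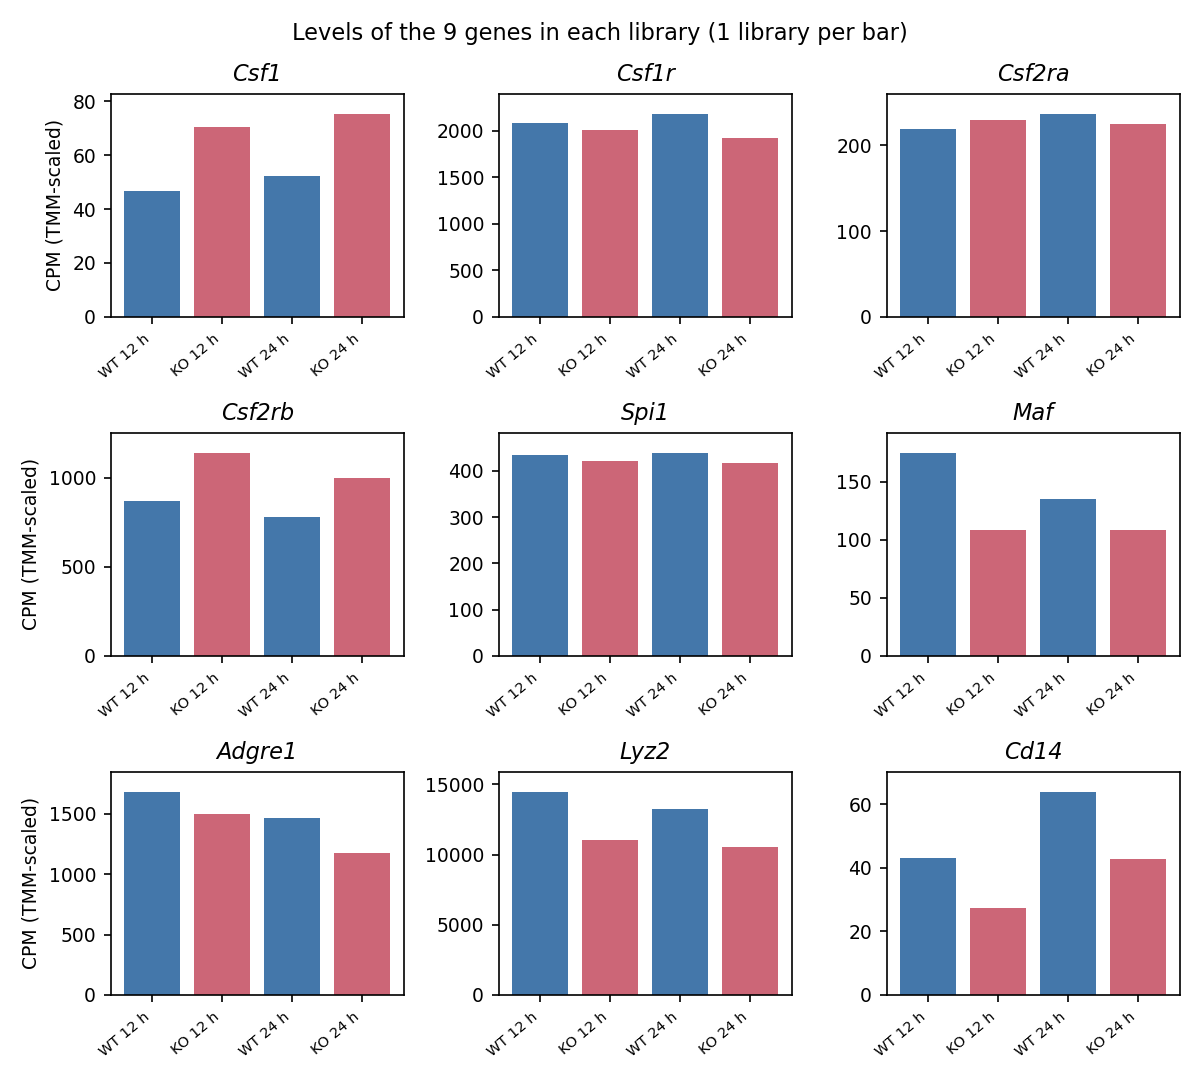
TMM-scaled CPM of each of the 9 genes, with 1 bar per library (blue WT, red KO) and each axis starting at 0. Csf1 and Csf2rb are higher in both libraries labelled KO, Maf and Lyz2 are lower in both, and the bars of Spi1 (416 to 439 CPM) are nearly level.

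Leaving out a library bore on these calls. Such fits hold 3 libraries and also lose the time term, so differences between times enter their error. The times are then unbalanced between the labels, so part of any time difference also enters the genotype fold. Cd14 alone was called when the 12 h WT library was dropped, and Csf1, Maf and Adgre1 when the 12 h KO library was. Dropping the 24 h WT library left Csf1 and Maf, and dropping the 24 h KO library left Csf1, Csf2rb, Maf and Cd14. The log2 fold of Cd14, -0.62 with all libraries, was -0.32 without the 12 h KO library, -0.30 without the 24 h WT library and -0.97 without the 24 h KO library. That of Adgre1, -0.25 with all libraries, was -0.14 without the 12 h WT library, -0.43 without the 12 h KO library and -0.07 without the 24 h KO library. For Maf it was -0.32 without the 12 h WT library, against -0.50 with all. The folds of Csf1, Csf2rb and Lyz2 moved by less than 1.5 times in these fits. With all 4 libraries and no time term Csf1 and Lyz2 were called. DESeq2 with time in the model called the same 6 genes as edgeR.

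Between 12 h and 24 h of IL-4, 2 of the 9 genes differed across both genotypes, where 2.08% of all genes were called. Cd14 rose (0.955% of all genes rose), by a fold of 1.48 in WT (1.39 to 1.58) and 1.56 in KO (1.44 to 1.69), or log2 0.60 (SE 0.09, edgeR adjusted p = 9.03e-05). Adgre1 fell (1.13% of all genes fell), by a fold of 0.871 in WT (0.861 to 0.881) and 0.784 in KO (0.775 to 0.794), or log2 -0.28 (SE 0.06, edgeR adjusted p = 0.00533). These markers thus differed in opposite directions with time and in the same direction with the KO label. Csf2rb had log2 -0.17 (SE 0.06, edgeR adjusted p = 0.152), Maf log2 -0.19 (adjusted p = 0.317), Csf1 0.13 (adjusted p = 0.591) and Lyz2 log2 -0.10 (adjusted p = 0.442), none of them called. Csf1r (0.00368, SE 0.06), Spi1 (0.00149, SE 0.06) and Csf2ra (0.04, SE 0.07) were nearest to 0. With genotype left out of the model edgeR called 0 of the 9 genes and 0 genes in all, with 0 and 367 at an unadjusted p under 0.05. The same held in every fit without 1 library (0 called, with 1 of the 9 genes at an unadjusted p under 0.05), while DESeq2 with genotype in the model called Cd14 and Adgre1. In those 3-library fits part of any genotype difference enters the time fold. There the log2 time fold of Cd14 was 0.96 without the 12 h WT library, 0.31 without the 12 h KO library and 0.28 without the 24 h WT library. That of Adgre1 was -0.18 without the 12 h WT library, -0.44 without the 24 h WT library and -0.12 without the 24 h KO library.

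**Figure D3:**
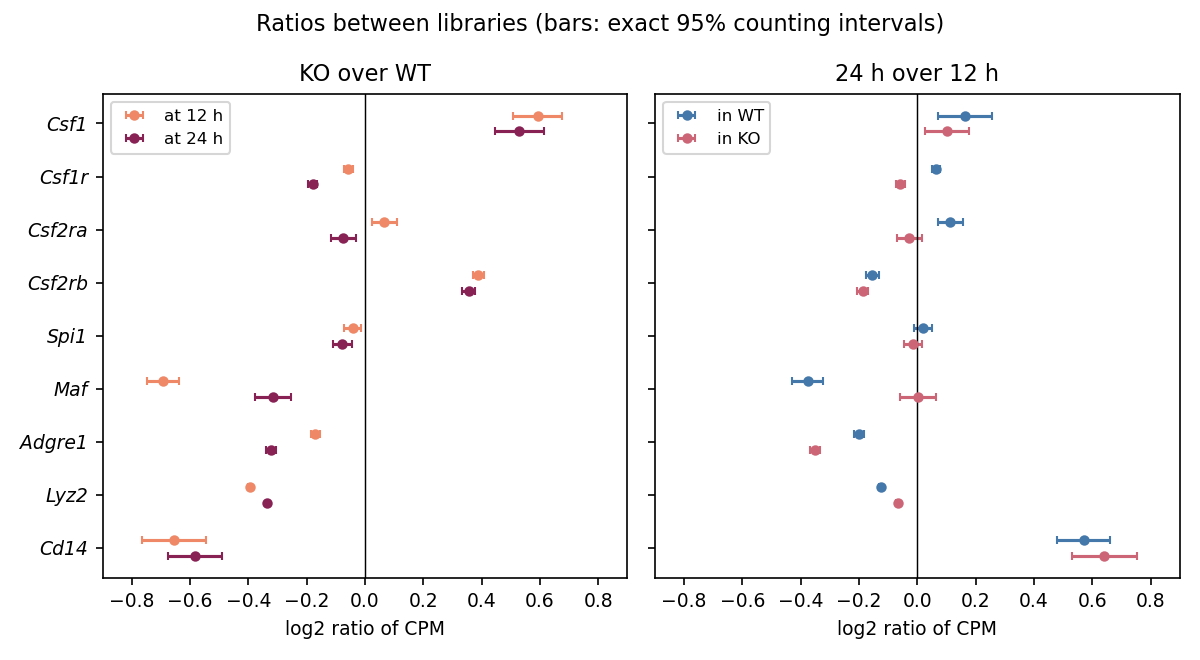
Log2 ratios of CPM between libraries for the 9 genes, KO over WT at each time on the left and 24 h over 12 h in each genotype on the right, with exact 95% counting intervals as bars. Cd14 lies left of 0 for genotype and right of 0 for time, and Maf is the gene whose points stand farthest apart.

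The other genes of the pathway were taken from 8 lists with 115 gene symbols besides the 9, of which 102 could be tested. Of these, 11 were higher and 22 lower with the KO label, 32.4% of them beside 9.52% of all genes, and 5 differed with time, 4.90% beside 2.08%. The genotype median of these genes was log2 -0.10. Members and lists were chosen with results of these data known, so these shares describe the lists and support nothing about them.

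In the list of CSF receptor signalling and turnover, 5 of 32 genes were higher and 4 lower, with a median log2 fold of -0.04. The higher ones were led by Cish, a cytokine-induced feedback inhibitor, at 7.004 and 7.99 CPM with the WT label and 16.2 and 14.2 CPM with the KO label (log2 1.02, SE 0.16, edgeR adjusted p = 2.86e-05). Cblb, a ubiquitin ligase related to the one that turns over CSF1R, was higher by 0.53 and Socs1, an inhibitor of JAK signalling, by 0.50, with log2 ratios of 0.83 at 12 h and 0.09 at 24 h. Gab3, a docking protein (log2 -0.65), Tyrobp, the adaptor DAP12 (log2 -0.32), and the SRC-family kinase gene Lyn (log2 -0.31) were lower. Jak2, the kinase bound to the beta chain, had a log2 fold of 0.35 and was called (SE 0.08, edgeR adjusted p = 0.00215), and Stat5a had log2 -0.02 (adjusted p = 0.957). These last 2 genes were picked out after their values were seen. Dropping in turn the 12 h WT, 12 h KO, 24 h WT and 24 h KO library, higher calls were 1, 4, 2 and 5, and lower calls 0, 1, 0 and 1. DESeq2 called 4 higher and 2 lower.

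Of the 22 transcription factor genes besides Spi1 and Maf, 3 were higher and 3 lower, with a median log2 fold of -0.04. Myc, a growth factor-induced regulator of the cell cycle, stood at 25.1 and 24.6 CPM against 41.4 and 40.3 CPM (log2 0.72, SE 0.10, edgeR adjusted p = 5.19e-06). Klf4, which acts in monocyte differentiation, was higher by 0.61 and Tfec, a factor of the MITF family, by 0.33. Fli1, an ETS factor (log2 -0.28), Cebpa, a factor of myeloid commitment (log2 -0.26), and Nr1h3, the oxysterol receptor LXR alpha (log2 -0.24, named after its value was seen), were lower. With Spi1 and Maf counted, higher calls without the 4 libraries in the order above were 1, 2, 1 and 1 and lower calls 0, 2, 1 and 3, and DESeq2 called 2 higher and 1 lower.

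Macrophage surface and granule markers besides the members were lower in 7 of 17 cases and higher in 1, with a median log2 fold of -0.18. Fcgr1, the high-affinity IgG receptor, stood at 172 and 154 CPM with the WT label and at 87.3 and 77.6 CPM with the KO label (log2 -0.98, SE 0.07, edgeR adjusted p = 5.95e-11). Mrc1, the mannose receptor and a marker of IL-4 activation, was the gene called higher (0.45). With the members counted, lower calls without the 4 libraries in the same order were 4, 4, 1 and 7, and DESeq2 called 10 lower and 1 higher, as edgeR did. With time, Ms4a7 (log2 -0.44) and Mrc1 (log2 -0.37) fell beside Adgre1.

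The list of the C1q genes, Il10, Pf4 and Cd5l had 5 of 6 genes lower and 0 higher, with a median log2 fold of -0.43. Pf4, a platelet chemokine also made by macrophages, was lower by log2 -0.54, C1qa by log2 -0.45 and C1qb by log2 -0.41, and Cd5l fell with time as well (log2 -0.41). Lower calls without the 4 libraries were 1, 5, 0 and 3, and DESeq2 called 5. Of the 10 genes of the lipopolysaccharide receptor list besides Cd14, edgeR called 0 for genotype, with 4 at an unadjusted p under 0.05, and DESeq2 called Cd14 alone. Ly86, which encodes the partner of the receptor CD180, fell with time (log2 -0.32). Among 11 monocyte markers 3 were lower and 1 higher, led by F13a1, a coagulation factor subunit (log2 -1.47, and log2 -0.67 with time), Ccr2, the monocyte chemokine receptor (log2 -0.50, with ratios of -0.81 at 12 h and -0.12 at 24 h), and Fn1, fibronectin (0.80). Lower monocyte calls without the 4 libraries were 0, 1, 1 and 2, and DESeq2 called 1.

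**Figure D4:**
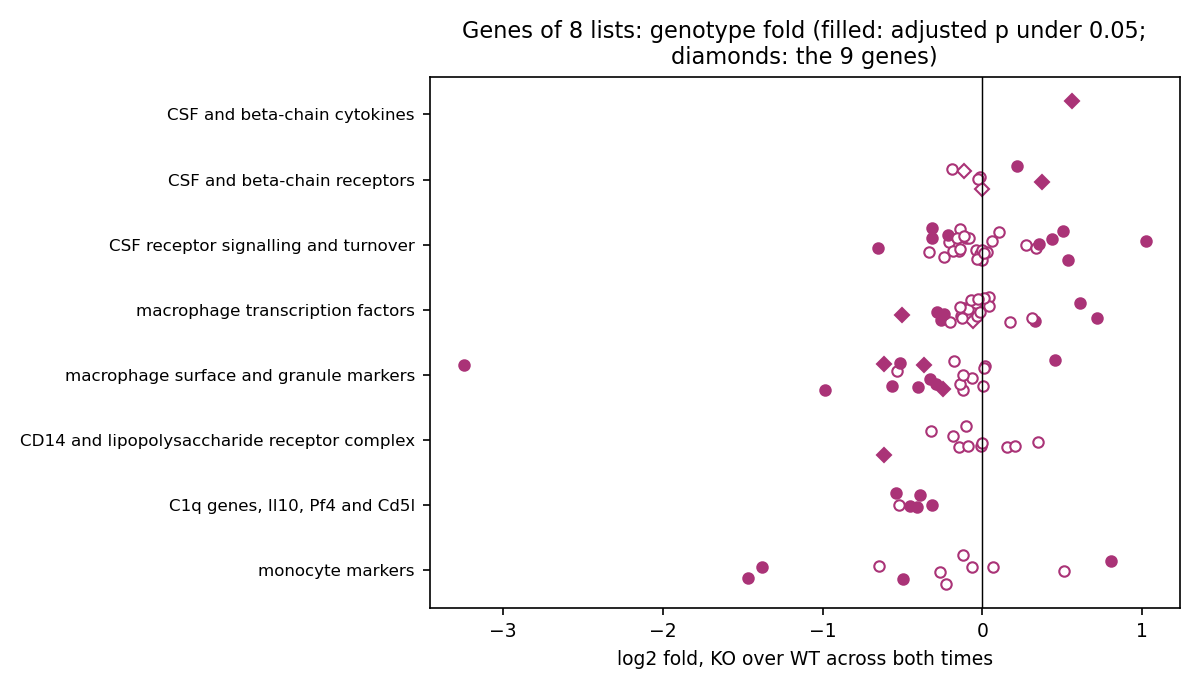
Log2 fold for genotype, KO over WT across both times, of each tested gene in the 8 lists (filled when the adjusted p is under 0.05, diamonds for the 9 genes described here, vertical spread for legibility). All 6 points of the C1q, Il10, Pf4 and Cd5l list lie below 0, and the signalling and transcription factor lists lie on both sides.

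Markers of other cell types moved with the same labels, for which 4.18% of all genes were called higher and 5.34% lower. Stromal and fibroblast markers, cells that also make CSF1, were called higher with the KO label in 9 of 12 cases and lower in 0, and summed to 128 and 152 CPM in the WT-labelled libraries and to 195 and 233 CPM in the KO-labelled pair. Neutrophil markers, cells that also express Lyz2, were called lower in 6 of 13 cases and higher in 0, and summed to 1143 and 1060 CPM against 888 and 783 CPM, with Ly6g at 0 in at least 1 library. Osteoclast markers, of cells that CSF1 also sustains, were higher in 3 of 8 cases and lower in 0, and summed to 1527 and 1600 CPM against 1710 and 1988 CPM. Most of that sum was Atp6v0d2 alone, at 1277 to 1672 CPM, while Calcr was not among the deposited genes and Oscar was at 0 in at least 1 library. Dendritic cell markers (2 of 3 higher) summed to at most 39.9 CPM, those of mast cells, basophils and eosinophils (2 of 8 lower) to 53.5, of lymphocytes (1 of 2 lower) to 50.4 and of erythroid cells and megakaryocytes (2 of 4 lower) to 81.9. With time, where 2.08% of all genes were called, neutrophil markers were lower in 4 of 13 cases and higher in 1. Osteoclast markers were higher with time in 3 of 8 cases and lower in 0. The stromal, dendritic cell and mast cell lists each had 1 gene higher and 0 lower, and the lymphocyte and erythroid lists 0 called. The part of these cells in the differences of Csf1, Lyz2 and the other genes was not tested.

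For each called gene, the genes whose profile was most like it were found by the root mean square difference of centred log2 CPM over the 4 libraries, among 9101 genes. Nearest to Csf1 was Cblb, at 0.0254, and nearest to Csf2rb was Sdr42e1, at 0.0237. For Adgre1 it was Eepd1 (0.0178), for Lyz2 Hdhd5 (0.0186), for Cd14 Gclm (0.0412) and for Maf Nfxl1 (0.0496). With 4 libraries many genes can share a profile, and the measure says nothing of a shared function.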

How the data were processed

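Libraries came from bead-captured mRNA by a VAHTS Universal V6 kit, per the labels' protocols. For each gene symbol the authors deposited a whole-number count and an FPKM value. The tools named in the submitters' processing notes are StringTie 1.3.0, HISAT2 and edgeR, with the build mm10. Their roles and the annotation were not stated. The deposited FPKM equals the count per kilobase and library total, and served for levels between genes.

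Counts were tested with edgeR 4.0.16 in R 4.3.3, with TMM scaling and genotype plus time as terms over 4 libraries, keeping genes that reached 1 CPM in 2 or more libraries, with Benjamini-Hochberg adjustment. The 1 residual degree of freedom mixes any genotype-by-time difference with noise. The common dispersion was 0.00602. The error of each gene was moderated across genes with a prior of 27.8 degrees of freedom, so a p-value rests largely on other genes. The SE is the log2 fold over the square root of F. Ratios between 2 libraries use a pseudocount of 1 CPM where a log2 ratio of 1 is counted, and folds use none. On simulated counts over 10965 genes the genotype fit found 56 of 65 genes made to differ 1.5-fold and all 65 at 2-fold, and made 15 false calls among 10770 others. These counts were drawn at a dispersion of 0.006 for every gene, near the estimate from these libraries, with no culture or genotype-by-time effect. They therefore cannot show how reliable calls from 1 library per group are. Alternatives were DESeq2 1.42.0, other scalings and filters, a model without the other factor, and fits without 1 library. Positions are from GENCODE M21.

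Members and lists were chosen with earlier results of these data known. The genes named are the members, the copies Lyz1 and Csf2rb2, Il34, Phlpp1 and, per list and direction, up to 3 called genes of at least 5 CPM with the largest folds, and the gene nearest in profile to each called member. Csf2, Csf3, Csf3r, Il3ra, Kit, Jak2, Stat5a, Nr1h3 and Il10 were named after their values were seen.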

Additional observations from a re-analysis of the deposited data

Results flagged for a closer look

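For 4 genes the ratios in the 2 genotypes, or at the 2 times, had opposite signs, and none of these differences was tested. Maf had a log2 ratio of -0.37 for 24 h over 12 h in WT and of 0.000929 in KO, where the counting interval of the fold (0.959 to 1.04) includes 1, a difference of 0.37 between the genotype ratios at 24 h and 12 h. Csf2ra had KO over WT ratios of 0.07 at 12 h and -0.07 at 24 h, which differ by -0.14. Csf1r rose by 0.07 in WT and fell by 0.06 in KO on the log2 scale, with a difference of -0.12. For Spi1 the ratios with time were 0.02 in WT and -0.02 in KO, with a difference of -0.0345, and the counting intervals of both folds include 1.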

How the results depend on the processing

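The 6 genotype calls and the 2 time calls among the 9 genes kept their direction in every alternative run. Fits without 1 library drop the other factor and are unbalanced, so part of it enters the fold. In them the log2 genotype fold ranged from -0.43 to -0.07 for Adgre1, from -0.97 to -0.30 for Cd14 and from -0.69 to -0.32 for Maf. The time fold ranged from 0.28 to 0.96 for Cd14 and from -0.44 to -0.12 for Adgre1. Matched KO over WT log2 ratios at 12 h and 24 h were -0.64 and -0.57 for Cd14, -0.17 and -0.32 for Adgre1, and -0.69 and -0.31 for Maf. Those for 24 h over 12 h in WT and KO were 0.56 and 0.62 for Cd14, and -0.20 and -0.35 for Adgre1. For genotype, edgeR called 1046 genes, 6 of the 9 and 39 list genes. Without time in the model these were 259, 2 and 15, and with DESeq2 514, 6 and 29. In fits without 1 library, which also drop time, they were 179, 1 and 8 without WT at 12 h, 576, 3 and 22 without its KO partner, 146, 2 and 8 without the 24 h WT library, and 564, 4 and 26 without the 24 h KO library. For time, edgeR called 229 genes, 2 of the 9 and 7 list genes. Without genotype in the model these were 0, 0 and 0, and also 0, 0 and 0 in each fit without 1 library. Library totals gave 141 genes for time and DESeq2 107. With a pseudocount of 0.5 the genes past a log2 ratio of 1 rose from 115 to 203 (KO over WT at 12 h), from 116 to 223 (24 h), from 15 to 56 (time in WT) and from 29 to 75 (time in KO). Scaling to library totals moved the share of genotype calls that were higher from 43.9% to 61.4%, and the median genotype fold of all genes from log2 -0.00253 to 0.05. It also moved 18 of the 36 log2 ratios of the 9 genes between 2 libraries outside their counting intervals. The level of Csf2ra per length was recomputed with an exon length chosen after seeing the data. No paired analysis was possible because there is 1 library per group and the labels give no replicate numbers.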
